A study of Mus musculus with 30 samples.

Results

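The second hemogenic endothelium population (HE2) and the blood progenitors that follow it were compared in mouse cells lacking Sp3, using all 4 such samples among the 30 RNA-seq samples of the study. The members were the 2 HE2 and the 2 progenitor samples of the E14 Sp3-/- line, chosen by genotype and population and not by any measured value. Embryonic stem cells (ESC) of the E14 line were differentiated, Flk1+ cells were purified from embryoid bodies and seeded into blast culture, and both populations were sorted from that culture on day 2. HE2 cells were KIT+ CD41+ Tie2+ and progenitors were KIT+ CD41+ Tie2-, so that the sort differed by Tie2 alone. The same step was available from wild-type (WT) E14 cells and from E14 cells homozygous for Sp1 without its DNA-binding domain (Sp1ΔDBD/ΔDBD), each with 2 samples of either population, and no sample was shared between genotypes. Each mutant genotype was represented by 1 ESC line, so that the genotype and the line cannot be told apart. Levels are fragments per kilobase of transcript, scaled to the fragments mapped (FPKM), quantile normalised between samples, and differences are given on the log2(FPKM + 0.1) scale as progenitor minus HE2.

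Hemogenic endothelium is a transient endothelium from which the first blood cells bud. In this endothelial-to-hematopoietic transition, flat cells held together by VE-cadherin lose junctions, matrix and vessel signalling and take up blood programs under factors such as RUNX1, GATA1 and PU.1. Sp1 and Sp3 are closely related zinc finger proteins that bind GC boxes at many promoters and are present in nearly all cells.

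The targeted gene was examined first. Sp3 stood at 4.19 and 3.38 FPKM in Sp3-/- HE2 and at 4.81 and 4.10 FPKM in Sp3-/- progenitors, below all 4 WT samples, which held 37.7 and 30.9 FPKM in HE2 and 58.1 and 35.3 FPKM in progenitors. Sp1 was present throughout, at 28.4 and 28.5 FPKM in Sp3-/- HE2 and 31.5 and 29.9 FPKM in Sp3-/- progenitors. Of the antigens used for sorting, Tek (Tie2) fell from 57.7 and 67.1 FPKM to 13.6 and 17.5 FPKM, which the gate required and which is no finding. Kit, at 31.4 and 24.3 FPKM in HE2 and 47.3 and 40.3 FPKM in progenitors, did not pass the test (adjusted p = 0.279), nor did Itga2b (CD41), at 130 and 134 FPKM against 81.6 and 102 FPKM (adjusted p = 0.593).

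Of 14525 genes tested with limma, 430 rose and 844 fell from HE2 to progenitors in Sp3-/- cells at an adjusted p under 0.05, which is 2.96% and 5.81% of the genes tested and 8.77% together. WT cells had 793 higher (5.46%) and 1130 lower calls (7.78%), 13.2% together, and Sp1ΔDBD/ΔDBD cells 977 (6.73%) and 1322 (9.1%), 15.8% together. Both progenitor samples lay above both HE2 samples for 33.8% of all genes tested and below them for 23.6%. Genes that were called, did not overlap and averaged over 3 FPKM in whichever population was higher numbered 240 higher (1.65%) and 597 lower (4.11%). By the 2-fold threshold of the study, with a mean above 3 FPKM and no test, 188 genes were higher (1.28% of 14685) and 474 lower (3.23%). The limma counts in Sp3-/- cells were lower whichever library was left out. Such a fit leaves 1 sample in a group and raises the standard error, which by itself lowers the number of calls. The number also depends on the library left out, and for the differences between genotypes below it rose in some cases. A call lost in this way, here or below, does not by itself show that a result rests on that library. Without HE2 replicate 2 the calls were 168 higher and 429 lower, without progenitor replicate 1 they were 163 and 474, without progenitor replicate 2 they were 234 and 677, and without HE2 replicate 1 they were 357 and 629. Among the genes called, 64 of those that rose had both HE2 samples at the lowest value of their column, and 79 of those that fell had both progenitor samples there. The quantile normalised values at that lowest level are tied, and no fold is given here against a group that lies wholly at it. The counts of list members below stand against the 2.96% higher and 5.81% lower over all genes tested.

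**Figure D1:**
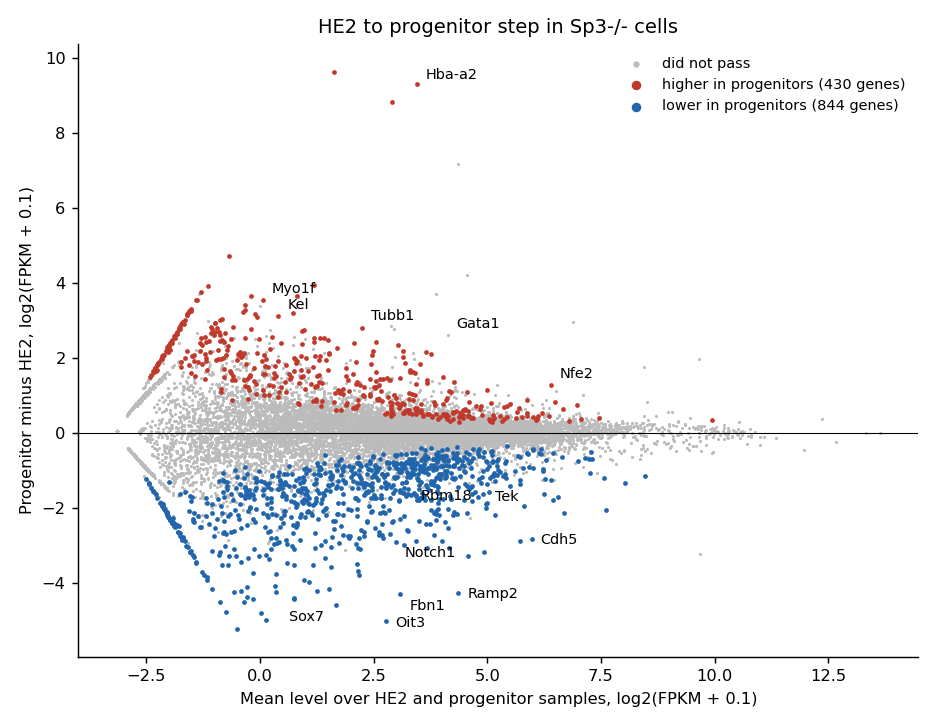
Difference between Sp3-/- progenitors and HE2 (y axis, log2 of FPKM + 0.1) against the mean level of each gene (x axis, log2 scale), 1 point a gene. Red points are the 430 genes called higher and blue points the 844 called lower by limma at an adjusted p under 0.05; the other genes are grey.

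Endothelial genes fell together. Of 36 endothelial identity genes tested, 29 fell and none rose, with a median log2 difference of -1.98 against 0.05 over all genes. Cdh5, VE-cadherin, at chr8:104101625-104144511, stood at 165 and 168 FPKM in HE2 and at 20.9 and 26.4 FPKM in progenitors, a 7.04-fold fall (log2 difference -2.82, SE 0.30, adjusted p = 7.95e-06). Ramp2, part of the adrenomedullin receptor, held 88.0 and 88.2 FPKM in HE2 and 3.40 and 5.98 FPKM in progenitors (log2 difference -4.26, SE 0.48, adjusted p = 1.26e-05). Both progenitor samples lay below both HE2 samples for these genes.

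Sox7, a SoxF transcription factor of early endothelium, fell from 14.95 and 15.5 FPKM to 0.439 and 0.671 FPKM (log2 difference -4.57, SE 0.45). Icam2, an endothelial adhesion molecule, fell from 13.5 and 15.6 FPKM to 1.36 and 1.08 FPKM (log2 difference -3.48, SE 0.27). Nos3, endothelial nitric oxide synthase, held 5.33 and 4.81 FPKM in HE2 and in progenitors 0.0234 FPKM, the lowest value of that column, and 0.175 FPKM (adjusted p = 0.000132). For Sox7, Icam2 and Nos3 the HE2 and progenitor samples did not overlap. Not every endothelial gene fell to that extent. Kdr, the VEGF receptor that marks the starting Flk1+ cells, went from 101 and 111 FPKM to 49.4 and 55.0 FPKM (log2 difference -1.02, SE 0.26, adjusted p = 0.0169), and its adjusted p lay between 0.054 and 0.135 when any 1 of the 4 libraries was left out. Pecam1, CD31, held 97.8 and 91.3 FPKM in HE2 and 65.9 and 65.8 FPKM in progenitors (log2 difference -0.52, SE 0.28, adjusted p = 0.308). Tie1 and Erg also did not pass (adjusted p = 0.102 and 0.396). Esam and Cldn5, of endothelial junctions, passed with all libraries (adjusted p = 0.00689 and 0.00789), but not without HE2 replicate 2 (0.0867 and 0.0656) or without progenitor replicate 1 (0.0968 and 0.119). With 1 library left out, 20 to 25 of the 36 endothelial genes fell.

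Among the 10 largest falls of all, Oit3 went from 38.1 and 39.0 FPKM to 1.27 and 0.943 FPKM (log2 difference -5.01, SE 0.50, adjusted p = 3.59e-06). Adcy4, an adenylyl cyclase, and Npr1, the atrial natriuretic peptide receptor, were at 5.03 and 6.69 FPKM and at 4.28 and 2.99 FPKM in HE2. In progenitors both were at 0.0234 FPKM, the lowest value of the column, in replicate 1, and at 0.186 and 0.111 FPKM in replicate 2. Aqp1, a water channel, held 5.18 and 3.35 FPKM in HE2 and lay at the lowest value of both progenitor columns (adjusted p = 6.19e-06), as did Gpm6a, a membrane glycoprotein, from 3.22 and 2.79 FPKM (adjusted p = 3.92e-07). Ushbp1 fell from 7.53 and 7.69 FPKM to 0.258 and 0.271 FPKM (log2 difference -4.40, SE 0.53). Slc26a10, from 4.32 and 3.49 FPKM, and Msx1, a homeobox factor, from 6.16 and 6.05 FPKM, each had 1 progenitor sample at the lowest value of its column. Nos3 and Sox7 complete these 10.

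**Figure D2:**
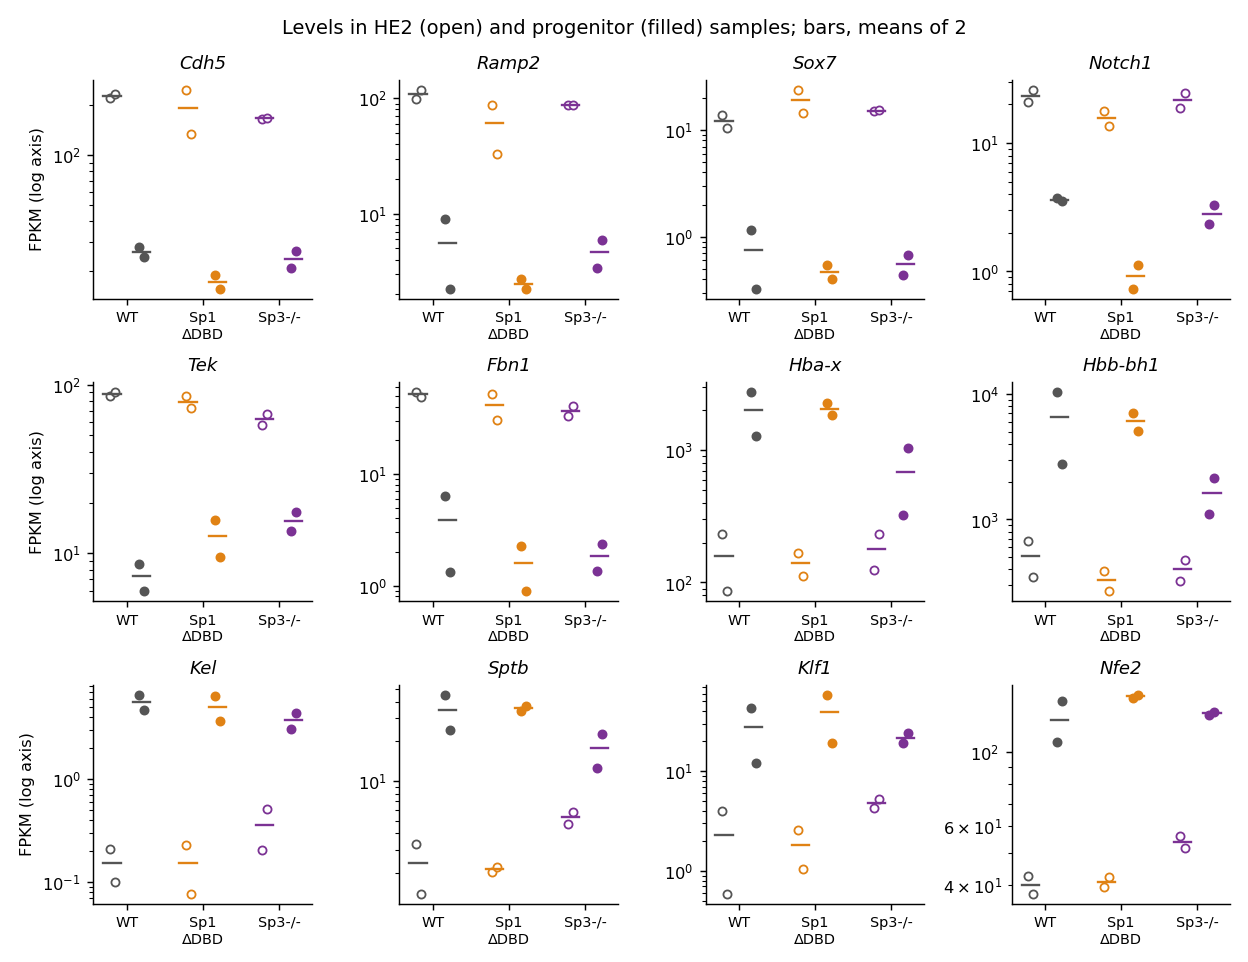
FPKM (y axis, log scale) of 12 genes in HE2 (open symbols) and progenitors (filled symbols) of 3 genotypes, with 1 symbol a sample and bars at the mean of 2 samples. In Sp3-/- cells Cdh5, Ramp2, Sox7, Notch1, Tek and Fbn1 were lower in both progenitor samples than in either HE2 sample. Hba-x, Hbb-bh1, Kel, Sptb, Klf1 and Nfe2 were higher in both, of which Hba-x, Hbb-bh1 and Klf1 did not pass the test.

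Signalling and matrix genes of vessels fell with them. In the Notch pathway, by which arterial endothelium is set up, 9 of 31 genes fell and none rose, with a median of -0.20. Notch1, the receptor, at chr2:26457903-26516663, went from 18.8 and 24.6 FPKM to 2.34 and 3.27 FPKM, a 7.53-fold fall (log2 difference -2.91, SE 0.20, adjusted p = 9.55e-08). Gja4, an arterial gap junction protein, went from 26.6 and 38.8 FPKM to 6.59 and 7.46 FPKM (log2 difference -2.18, SE 0.35). Notch1 and Gja4 did not overlap between the populations. Efnb2, the arterial ephrin, and Nrarp, a Notch target, fell by 1.34 and 1.01 on the log2 scale. Nrarp had an adjusted p of 0.0732 to 0.114 when any 1 library was left out, and Efnb2 passed only without HE2 replicate 1 (0.0374) and reached 0.125 otherwise. Without HE2 replicate 2, progenitor replicate 1 or progenitor replicate 2, the list had 4 lower calls.

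Of 31 genes of VEGF, angiopoietin and guidance signalling, 12 fell and 1 rose (median -0.71), and without progenitor replicate 1 the lower calls were 7. Edn1, endothelin, was at 4.60 and 5.04 FPKM in HE2 and in progenitors at 0.0234 FPKM, the lowest value of the column, and 0.446 FPKM (adjusted p = 0.000619). Sema6d, a semaphorin, fell from 3.28 and 3.67 FPKM to 0.346 and 0.386 FPKM, and Unc5b, a netrin receptor of vessels, from 12.6 and 11.6 FPKM to 1.97 and 1.74 FPKM. Sema6a fell by 2.66 on the log2 scale (adjusted p = 0.00356), with 0.0584 without HE2 replicate 2 and 0.0596 without progenitor replicate 1. In TGF-beta and BMP signalling, 12 of 38 genes fell and none rose (median -0.40), and 6 to 8 fell with 1 library left out, 6 of them without HE2 replicate 1, 7 without HE2 replicate 2 and 6 without progenitor replicate 2. Bmp6, a ligand, went from 11.4 and 11.1 FPKM to 0.292 and 0.935 FPKM. Acvrl1, the endothelial type I receptor, went from 7.05 and 7.49 FPKM to 0.860 and 0.329 FPKM. Id3, a target of BMP signalling, fell 9.73-fold, from 74.5 and 73.7 FPKM to 8.32 and 6.81 FPKM (log2 difference -3.28, SE 0.29, adjusted p = 9.14e-07), and Id2 by 2.01 on the log2 scale.

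Of 36 extracellular matrix genes, 16 fell and none rose (median -1.04), and 11 to 13 fell with 1 library left out. Fbn1, fibrillin of the microfibrils, went from 33.2 and 40.3 FPKM to 1.36 and 2.33 FPKM (log2 difference -4.28, SE 0.58, adjusted p = 6.92e-05). The basement membrane collagens Col4a1, from 136 and 151 FPKM to 17.7 and 21.3 FPKM, and Col4a2, from 94.98 and 87.9 FPKM to 9.48 and 10.8 FPKM, fell 7.33-fold and 8.95-fold, and the secreted Fstl1 fell 8.41-fold. All 4 of these matrix genes were lower in both progenitor samples than in either HE2 sample. Among 40 integrin and focal adhesion genes 6 fell and 3 rose, with 1 higher call without HE2 replicate 2 or progenitor replicate 1. Ptrf, of caveolae, fell from 31.6 and 41.1 FPKM to 5.54 and 5.30 FPKM, and Parva and Fermt2, of focal adhesions, fell by 1.67 and 1.59 on the log2 scale. Itga4, the integrin alpha-4 subunit of blood cells, rose from 3.97 and 3.65 FPKM to 10.2 and 8.66 FPKM (adjusted p = 0.0104), with 0.0912 without HE2 replicate 2 and 0.108 without progenitor replicate 1.

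Some of the erythroid genes rose. Of 36 globin and erythroid genes tested, 13 rose and 1, Aqp1, fell in Sp3-/- cells, with a median log2 difference of 1.43 against 0.05 over all genes. The list had 25 higher calls and a median of 3.097 in WT, and 31 and 3.52 in Sp1ΔDBD/ΔDBD. In 33 of the 36 genes the Sp3-/- step lay below the WT step, against 6940 of 14525 over all genes tested. These differences were tested gene by gene, with 1 member called. It was Hbq1a, which lay at the lowest value of its column in every Sp3-/- sample. Without progenitor replicate 2 the higher calls were 7, without HE2 replicate 1 they were 8, without HE2 replicate 2 they were 9 and without progenitor replicate 1 they were 12. Progenitor replicate 2 was above progenitor replicate 1 in 30 of the 36 genes, and HE2 replicate 2 was above HE2 replicate 1 in 27 of them. In bulk samples, fewer cells of a type and less RNA of that type per cell cannot be told apart.

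Hba-a2, an adult alpha globin, at chr11:32296489-32297298, held 0.249 and 0.383 FPKM in HE2 and 165 and 406 FPKM in progenitors (log2 difference 9.30, SE 1.25, adjusted p = 6.92e-05). Its near-identical copy Hba-a1 went the other way without passing the test, at 23.7 and 43.5 FPKM against 5.55 and 28.7 FPKM (adjusted p = 0.678), so the division between the copies is uncertain. Their sum was 23.9 and 43.9 FPKM in HE2 and 171 and 435 FPKM in progenitors, against 31.8 and 24.9 FPKM and 1001 and 648 FPKM in WT. The embryonic globins, the main ones of primitive red cells, summed to 480 and 790 FPKM in Sp3-/- HE2 and 1487 and 3408 FPKM in progenitors, and to 968 and 480 FPKM and 13521 and 4462 FPKM in WT. Both Sp3-/- progenitor samples lay above both HE2 samples in each sum and below both WT progenitor samples. Among single embryonic globins, Hba-x (zeta) stood at 124 and 234 FPKM in HE2 and 325 and 1038 FPKM in progenitors (log2 difference 1.77, SE 0.68, adjusted p = 0.124), and Hbb-bh1 at 325 and 474 FPKM against 1111 and 2128 FPKM (log2 difference 1.97, SE 0.64, adjusted p = 0.0626). Hbb-y did not pass either (adjusted p = 0.308). Hbq1b, a theta globin with the near-identical copy Hbq1a, was at the lowest value of both HE2 columns and at 1.49 and 5.27 FPKM in progenitors (adjusted p = 1.5e-05).

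Genes of the red cell membrane were among those called. Kel, the Kell blood group protein, at chr6:41686330-41704339, rose from 0.204 and 0.513 FPKM to 3.07 and 4.36 FPKM (log2 difference 3.12, SE 0.40, adjusted p = 4.39e-05). Rhag, the Rh-associated glycoprotein, was at 0.00647 FPKM, the lowest value of the column, and 0.340 FPKM in HE2 and at 2.34 and 2.96 FPKM in progenitors (adjusted p = 1.71e-05). Car2, carbonic anhydrase, rose from 99.5 and 93.7 FPKM to 157 and 171 FPKM (log2 difference 0.76, SE 0.13). Kel, Rhag and Car2 kept their calls with any 1 library left out. Sptb, beta spectrin of the membrane skeleton, rose from 4.70 and 5.85 FPKM to 12.6 and 22.9 FPKM (adjusted p = 0.00529), and this call was lost without HE2 replicate 1 (adjusted p = 0.0524) and without progenitor replicate 2 (0.0983). Epb42 and the erythropoietin receptor gene Epor passed (adjusted p = 0.0158 and 0.0247) with all libraries. Epb42 kept its call only without progenitor replicate 1 (0.0408 against up to 0.134) and Epor only without HE2 replicate 1 (0.0409 against up to 0.235). Ank1, ankyrin, at 0.471 and 1.61 FPKM against 0.957 and 4.96 FPKM, did not pass (adjusted p = 0.366).

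Of 28 genes of haem synthesis and iron handling, 7 rose and 3 fell (median 0.32), against 15 and 2 in WT. Fech, which inserts iron into haem, rose from 18.0 and 25.02 FPKM to 47.5 and 46.0 FPKM (log2 difference 1.14, SE 0.17, adjusted p = 0.000195). Uros and Urod, earlier enzymes of the pathway, rose by 1.07 and 0.72 on the log2 scale, and both calls were lost without HE2 replicate 1 (adjusted p = 0.128 and 0.0567) and without progenitor replicate 2 (0.164 and 0.0911), that of Uros also without HE2 replicate 2 (0.0644). Alas2, the erythroid enzyme of the first step, did not pass, at 14.4 and 21.3 FPKM against 27.8 and 47.0 FPKM (adjusted p = 0.178). Tfrc, the transferrin receptor, passed with all 4 libraries (adjusted p = 0.0475) and with no 3 of them. Slc40a1, ferroportin, and Hmox1, haem oxygenase, fell by 1.27 and 0.88 on the log2 scale (adjusted p = 0.0197 and 0.011). Both of those calls were lost without HE2 replicate 2 (0.284 and 0.0905), progenitor replicate 1 (0.144 and 0.0525) or progenitor replicate 2 (0.062 and 0.0775). The list's higher calls were 1 without HE2 replicate 1 or progenitor replicate 2, 2 without HE2 replicate 2 and 4 without progenitor replicate 1, and the lower calls were 2 without HE2 replicate 1 and 0 without any other library.

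**Figure D3:**
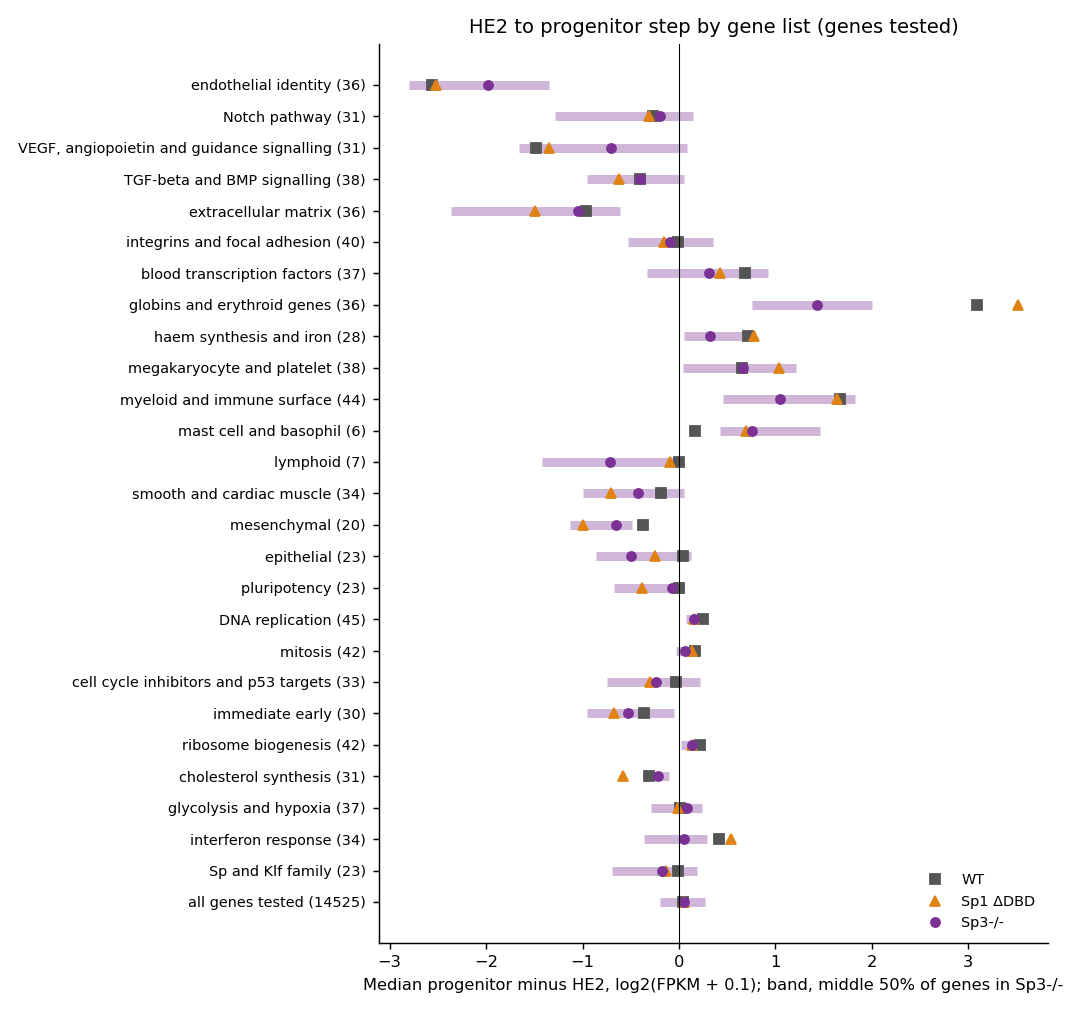
Median log2 difference, progenitor minus HE2, of each gene list (x axis) in 3 genotypes, with a band for the middle 50% of genes in Sp3-/- cells. The endothelial list has a median of -1.98 in Sp3-/- and -2.56 in WT, and the erythroid list is at 1.43 in Sp3-/- and 3.097 in WT.

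Some myeloid and megakaryocyte genes rose. Of 44 myeloid and immune surface genes, 14 rose and 1 fell (median 1.05), with 20 and 1 in WT, and 8 rose without HE2 replicate 2 and 7 without either progenitor sample. Myo1f, a myosin of leukocytes outside the list and among the 10 largest rises, rose from 0.143 and 0.274 FPKM to 3.66 and 3.17 FPKM (log2 difference 3.54, SE 0.57, adjusted p = 0.000425). Ptprc, CD45, was at the lowest value of both HE2 columns and at 0.448 and 0.807 FPKM in progenitors (adjusted p = 0.000198), and Itgam, CD11b, at 0.00647 FPKM, again the lowest value, and 0.214 FPKM against 0.886 and 1.32 FPKM. Tyrobp, an adaptor of immune receptors, rose from 1.68 and 1.06 FPKM to 5.19 and 9.02 FPKM (adjusted p = 0.012, and 0.139 without HE2 replicate 2 and 0.121 without progenitor replicate 2). Cd52 and Fcer1g each had 1 HE2 sample at the lowest value of its column and the other at 1.44 and 1.27 FPKM, against 7 and 5.53 FPKM and 4.12 and 3.01 FPKM in progenitors. Both calls were lost without the HE2 sample at the lowest value, which was replicate 1 for Cd52 and replicate 2 for Fcer1g. They were also lost without progenitor replicate 1 or progenitor replicate 2. Mrc1, the mannose receptor of macrophages and some endothelium, fell from 3.61 and 5.59 FPKM to 0.317 and 0.181 FPKM (adjusted p = 2.03e-05). Csf1r and Mpo did not pass (adjusted p = 0.289 and 0.243).

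In the megakaryocyte and platelet list, 8 of 38 genes rose and 1 fell (median 0.66), with 4 higher calls without HE2 replicate 2 and 5 without progenitor replicate 2. The summed megakaryocyte markers went from 145 and 149 FPKM to 107 and 130 FPKM. Most of that sum was the sort antigen Itga2b (CD41), and the other markers together were higher in both progenitor samples. Tubb1, the platelet beta-tubulin, rose from 0.997 and 2.51 FPKM to 9.69 and 14.4 FPKM (log2 difference 2.81, SE 0.61, adjusted p = 0.00499), with 0.0809 without HE2 replicate 1 and 0.0546 without progenitor replicate 2. Plek, pleckstrin, rose 4.29-fold, from 6.24 and 6.66 FPKM to 29.3 and 26.8 FPKM. Gng11 fell from 25.2 and 35.4 FPKM to 5.04 and 8.79 FPKM, with an adjusted p of 0.0365 that lay between 0.0581 and 0.293 when any 1 library was left out. Pf4, a platelet chemokine, did not pass (adjusted p = 0.0733).

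Of 37 blood transcription factors 1 passed the test. Nfe2, a regulator of erythroid and megakaryocyte genes, rose 2.43-fold, from 56.0 and 51.7 FPKM to 129 and 132 FPKM (log2 difference 1.28, SE 0.24, adjusted p = 0.00141). The count depended on the fit, with 6 higher at a pseudocount of 1, 5 with HE2 and progenitor samples only and 8 with the 4 samples fitted alone. In WT 12 of the list rose and 6 fell, and no member had a called difference from WT.

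Gata1, the main erythroid factor, stood at 8.60 and 5.47 FPKM in HE2 and 40.1 and 45.2 FPKM in progenitors (log2 difference 2.62, SE 0.83, adjusted p = 0.0567), and Klf1, its erythroid partner, at 4.29 and 5.27 FPKM against 19.0 and 24.2 FPKM (log2 difference 2.15, SE 0.83, adjusted p = 0.126). For both genes the populations did not overlap, and both passed when the 4 samples were fitted alone. Spi1, PU.1, stood at 4.90 and 3.97 FPKM against 12.6 and 12.1 FPKM (adjusted p = 0.0885), Runx1 at 24.5 and 8.99 FPKM against 33.5 and 27.5 FPKM (adjusted p = 0.454), and Gfi1b at 28.1 and 29.2 FPKM against 46.6 and 54.0 FPKM (adjusted p = 0.223). Gata2, Tal1 and Myb also did not pass (adjusted p = 0.237, 0.51 and 0.196), and Cebpa stayed under 1 FPKM. Cd34, a surface marker of blood progenitors and endothelium, was at 111 and 123 FPKM against 112 and 140 FPKM (log2 difference 0.10, SE 0.46, adjusted p = 0.982), with a direction that turned without progenitor replicate 2 (-0.06).

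Genes of other lineages fell in part. Of 34 smooth and cardiac muscle genes 5 fell, among them the mesodermal regulators Gata4, from 16.5 and 20.3 FPKM to 2.72 and 4.90 FPKM, and Gata6, from 5.44 and 8.13 FPKM to 1.32 and 1.51 FPKM. Hand2 fell by 2.03 on the log2 scale (adjusted p = 0.00223, with 0.0681 without HE2 replicate 2 and 0.0643 without progenitor replicate 1), and Tbx20 passed only with all 4 libraries (adjusted p = 0.0462). The 5 calls became 2 without HE2 replicate 2 or progenitor replicate 1 and 3 without either other library. Of 20 mesenchymal genes 4 fell, with 2 without progenitor replicate 1. Vim, vimentin, fell from 526 and 531 FPKM to 245 and 236 FPKM (log2 difference -1.14, SE 0.18), and Cdh2, N-cadherin, by 1.38 on the log2 scale. Twist1 fell by 2.45 on that scale (adjusted p = 0.00456), with 0.052 without HE2 replicate 1 and 0.051 without progenitor replicate 1. Of 30 immediate early genes 5 fell, with 2 or 3 when 1 library was left out. Atf3, a stress factor, went from 7.05 and 9.45 FPKM to 0.637 and 1.28 FPKM. Socs3 fell by 1.74 on the log2 scale and was lost without HE2 replicate 2 (0.069) or progenitor replicate 1 (0.0545). Dusp6 fell by 1.52 and was lost without progenitor replicate 2 (0.0559), and Ctgf passed only with all 4 libraries (adjusted p = 0.045). Tbx3, of the pluripotency list, fell from 6.33 and 5.11 FPKM to 1.29 and 1.07 FPKM.

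Hist1h4m, Gm12070 and Zfp991 were also among the 10 largest rises. Hist1h4m, a histone H4 gene with near-identical copies, went from 0.184 and 0.327 FPKM to 185 and 134 FPKM (adjusted p = 0.00161), and the division of reads between copies is uncertain. Gm12070 was at the lowest value of both HE2 columns and at 80.9 and 94.9 FPKM in progenitors (adjusted p = 0.00919). In WT it was at 0 and 68.4 FPKM in HE2, so that 1 WT HE2 sample stood near the progenitor level. Zfp991 was at 1.10 FPKM and at the lowest value in HE2 and at 4.79 and 4.32 FPKM in progenitors (adjusted p = 0.0119). The calls of Gm12070 and Zfp991 were lost without HE2 replicate 2 (0.0656 and 0.304), progenitor replicate 1 (0.062 and 0.0842) or progenitor replicate 2 (0.0544 and 0.0547).

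By limma none of 45 DNA replication genes passed in Sp3-/- cells (median 0.16) and none of 31 cholesterol synthesis genes did. With the 4 samples fitted alone 3 replication genes were higher and 1 lower, and 3 cholesterol genes were lower. In WT 8 replication genes rose, and no member of that list had a called difference from WT. Of 42 mitosis genes 1 was called higher, a share no larger than the 2.96% over all genes. It was Cdc25b, a phosphatase that opens mitosis, with a log2 difference of 0.76 (adjusted p = 0.0225), and the call was lost without HE2 replicate 1 (0.0534), HE2 replicate 2 (0.188) or progenitor replicate 2 (0.194). Ccnd1, cyclin D1, fell from 15.6 and 12.3 FPKM to 3.18 and 3.01 FPKM (log2 difference -2.13, SE 0.33), Gas6, a ligand of TAM receptors, fell 4.55-fold from 76.3 and 76.8 FPKM, and Plk2 fell 2.62-fold. Perp, a p53 target, rose from 8.08 and 4.18 FPKM to 19.9 and 16.05 FPKM and kept its call (adjusted p = 0.0284) only without HE2 replicate 1. Apoe, Mycn and Utp14a passed only with all 4 libraries (adjusted p = 0.0251, 0.022 and 0.0494), and Ifitm3, of the interferon list, fell by 1.02 on the log2 scale and kept its call only without progenitor replicate 1. In the glycolysis and hypoxia list of 37 genes 3 rose and 3 fell, with 1 higher call whichever library was left out. Pfkfb4, a regulator of glycolysis, rose from 7.30 and 6.07 FPKM to 14.97 and 18.8 FPKM, and Egln1, an oxygen sensor, fell from 6.07 and 8.34 FPKM to 2.01 and 3.17 FPKM. Bnip3 and Ankrd37 passed with all 4 libraries (adjusted p = 0.0166 and 0.0337) and with no 3 of them. Of 23 Sp and Klf family genes 4 fell, Klf2, Klf3, Klf4 and Klf14, with 2 calls without HE2 replicate 1, 0 without HE2 replicate 2 and 1 without progenitor replicate 1. Klf2, a flow-responsive factor of endothelium, went from 15.5 and 10.9 FPKM to 3.66 and 4.94 FPKM (adjusted p = 0.0472, and 0.0922 to 0.293 with 1 library left out).

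Markers of other cell types were summed for each sample beside these results. The 6 endothelial markers summed to 514 and 536 FPKM in Sp3-/- HE2 and 192 and 213 FPKM in Sp3-/- progenitors. Transcripts of these genes were thus kept in progenitors. This was not particular to Sp3-/- cells, with sums of 158 and 215 FPKM in WT progenitors and 131 and 170 FPKM in Sp1ΔDBD/ΔDBD progenitors. In Sp3-/- cells the smooth muscle markers went from 136 and 113 FPKM to 57.1 and 68.7 FPKM. The epithelial markers went from 59.5 and 39.9 FPKM to 36.3 and 31.1 FPKM. Cardiac markers were at 3.35 and 4.71 FPKM against 1.86 and 2.17 FPKM and markers of undifferentiated cells at 0.739 and 0.313 FPKM against 0.312 and 0.250 FPKM. Of the blood cell markers, 5 of 6 megakaryocyte markers were in the table. They summed to 145 and 149 FPKM in HE2 and 107 and 130 FPKM in progenitors. Most of that sum was the sort antigen Itga2b, and the remainder was higher in both progenitor samples. The 4 myeloid markers in the table summed to 21.0 and 17.1 FPKM against 34.8 and 37.8 FPKM and the blood progenitor markers to 196 and 176 FPKM against 256 and 264 FPKM. The part of these cells in the results above was not tested.

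The step was then compared with that of the other genotypes. Across all genes tested the log2 difference in Sp3-/- cells had a Pearson correlation of 0.679 with that in WT and 0.687 with that in Sp1ΔDBD/ΔDBD, and WT and Sp1ΔDBD/ΔDBD had 0.745, where genes are not independent replicates. Of the genes called higher in Sp3-/- cells 243 were called higher in WT, 56.5% of the Sp3-/- calls and 30.6% of the WT calls. Of those called lower 636 were called lower in WT, 75.4% and 56.3%. Genes called in the Sp1ΔDBD/ΔDBD step were taken as a common set for the other 2 genotypes. Their levels in Sp3-/- and WT samples did not enter that difference, but those samples shared in the estimate of its spread. The 977 that rose there had a median log2 difference of 0.56 in Sp3-/- and 0.80 in WT, and the rise was smaller in Sp3-/- for 674 of them (69.0%). The 1322 that fell had medians of -0.91 and -1.06, and the fall was smaller in Sp3-/- for 796 (60.2%). Over all 14525 genes tested the Sp3-/- step lay below the WT step in 6940 and above it in 7585. In Sp3-/- cells 94.2% of the first set and 95.8% of the second moved in the same direction as in Sp1ΔDBD/ΔDBD. In WT cells 95.1% and 97.6% did. Over all genes tested the Sp3-/- step was positive in 8611 and negative in 5912.

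**Figure D4:**
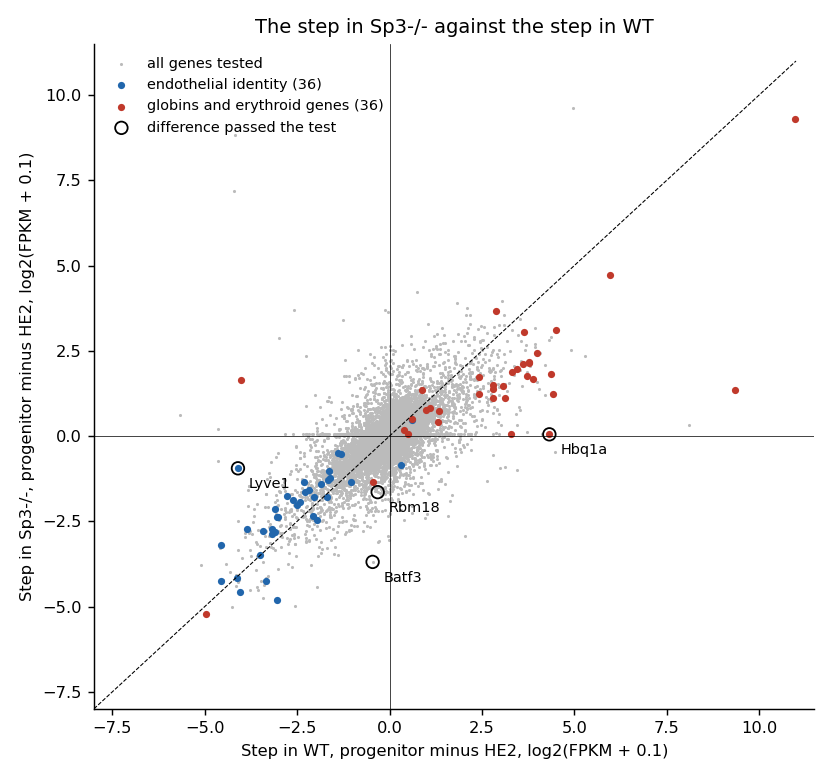
Log2 difference, progenitor minus HE2, in Sp3-/- cells against that in WT, 1 point a gene, with the dashed line at equality. The 36 endothelial genes are blue, the 36 globin and erythroid genes are red and 33 of the red points lie on the side where the Sp3-/- value is below the WT value; the 4 genes whose difference from WT was called are circled.

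Tested directly, the step differed from that in WT for 4 genes of 14525 (0.0275%), 1 with a higher value in Sp3-/- (0.00688%) and 3 with a lower one (0.0207%). It differed from that in Sp1ΔDBD/ΔDBD for 8 genes (0.0551%), 1 higher (0.00688%) and 7 lower (0.0482%). At an unadjusted p under 0.05 there were 836 (5.76%) and 935 (6.44%). The median standard error of a difference of steps was 0.36 on the log2 scale, against 0.25 for the step itself. With 1 Sp3-/- library left out, the counts ran from 4 to 16 and from 4 to 22. Without HE2 replicate 1 they were 16 and 22, without HE2 replicate 2 they were 4 and 4, and without progenitor replicate 2 they were 10 and 21. In the erythroid list 11 members had a smaller step than WT and 1 a larger step at an unadjusted p under 0.05. Of these, Sptb, chosen after its values were seen, had a log2 difference of 1.67 in Sp3-/- and 3.88 in WT (difference -2.21, 95% interval -3.28 to -1.13, adjusted p = 0.277). For Hba-x the difference of steps was -1.96 (interval -3.96 to 0.04). For Cdh5 it was 0.29 (interval -0.60 to 1.19).

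Rbm18, an RNA-binding protein gene at chr2:36116079-36136773, fell in Sp3-/- cells, and this fall differed from the step in both other genotypes. It stood at 19.4 and 15.98 FPKM in Sp3-/- HE2 and at 5.23 and 5.92 FPKM in Sp3-/- progenitors (log2 difference -1.65, SE 0.13, adjusted p = 2.21e-07). In WT it held 15.4 and 16.4 FPKM in HE2 and 12.7 and 12.7 FPKM in progenitors. The difference of steps was -1.32 (SE 0.18, 95% interval -1.71 to -0.94, adjusted p = 0.00404), and from Sp1ΔDBD/ΔDBD it was -1.37 (adjusted p = 0.00231). Both Sp3-/- progenitor samples lay below the other 28 samples of the series, which ranged from 10.8 to 24.2 FPKM. The difference from WT was called under 10 of 12 alternatives, and the adjusted p rose to 0.407 when the spread was estimated from fewer samples.

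Lyve1, a hyaluronan receptor of lymphatic and early endothelium, differed through its HE2 level. It was at 2.78 and 2.99 FPKM in Sp3-/- HE2 and 1.44 and 1.45 FPKM in Sp3-/- progenitors, whereas WT held 47.3 and 33.2 FPKM in HE2 and 1.49 and 3.27 FPKM in progenitors. In Sp1ΔDBD/ΔDBD HE2, Lyve1 was also below WT, at 3.59 and 2.87 FPKM, so that the low level was not particular to Sp3-/- cells. Its step was -0.95 in Sp3-/- (adjusted p = 0.0669) and -4.10 in WT (difference 3.16, SE 0.44, adjusted p = 0.00404), and it was -0.87 in Sp1ΔDBD/ΔDBD. The difference from WT was called under 9 of 11 alternatives, and the adjusted p rose to 0.457 when the spread was estimated from fewer samples. The other 2 differences from WT involved low genes chosen after their values were seen. Hbq1a lay at the lowest value of its column in all 4 Sp3-/- samples and at 2.05 and 1.78 FPKM in WT progenitors (adjusted p = 0.00404), and its copy Hbq1b was detected, so the division between the copies is uncertain. Batf3, a bZIP transcription factor, held 1.66 and 1.14 FPKM in Sp3-/- HE2 and lay at the lowest value in both progenitor columns, against 1.45 and 2.68 FPKM and 1.19 and 1.67 FPKM in WT (adjusted p = 0.0393). That call was lost with any 1 library left out, at 0.0647 to 0.0883.

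**Figure D5:**
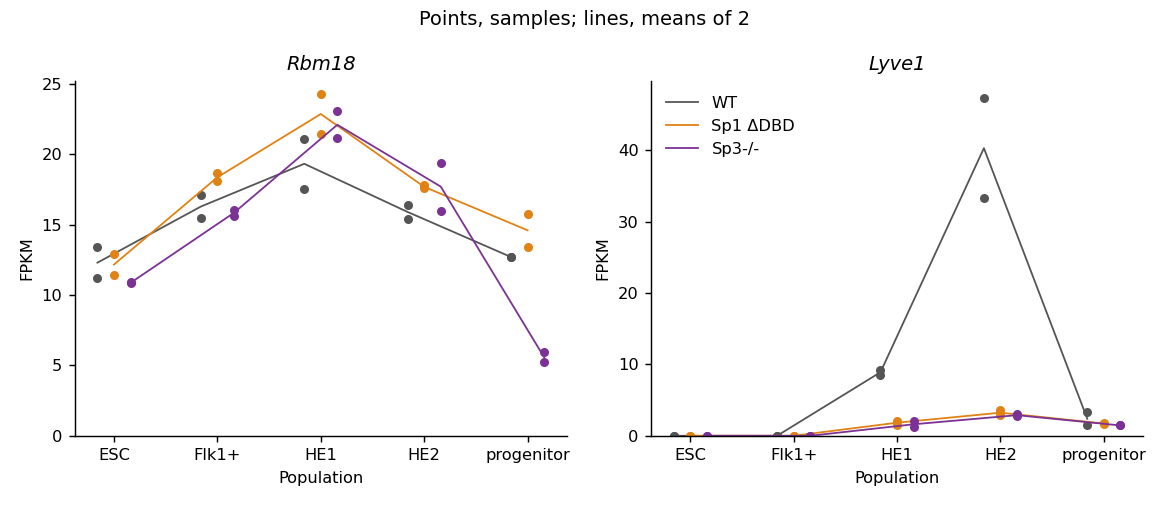
FPKM of Rbm18 and Lyve1 (y axes) in 5 populations and 3 genotypes, 1 symbol a sample. Rbm18 is lowest in the 2 Sp3-/- progenitor samples, at 5.23 and 5.92 FPKM. Lyve1 in WT HE2 stands at 47.3 and 33.2 FPKM, against 2.78 and 2.99 FPKM in Sp3-/- HE2 and 3.59 and 2.87 FPKM in Sp1ΔDBD/ΔDBD HE2.

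Promoters of the genes above were read because Sp3 binds GC boxes. RefSeq promoters (GRCm38.p6, 250 bases before to 50 after the start) with a single entry were at hand for 264 of the 430 higher genes, 474 of the 844 lower genes and 8861 of the 14525 tested. A GC box (GGGCGG, either strand) lay in 58.0% of the higher, 73.8% of the lower and 64.3% of all. A GATA site (AGATAA, either strand) lay in 12.1%, 4.85% and 6.399% respectively. In 23 globin and erythroid promoters the share was 34.8% for the GATA site, 34.8% for a RUNX site (TGTGGT, either strand, 12.5% of all) and 26.1% for the GC box, and in 16 endothelial promoters it was 62.5% for the GC box and 0% for the GATA and RUNX sites. The called genes also differed in base composition, with a median GC content of transcripts of 48.3% in the higher, 52.7% in the lower and 49.8% in all genes, and its part in these shares was not tested. The 120 bases before the start are printed for genes whose step or difference of steps is described above, chosen because they hold a motif, with 1 kind of motif in capitals in each. The start is that of the RefSeq promoter entry. The gene spans are from another annotation, GENCODE. The RefSeq start lies inside the GENCODE span for Notch1, Batf3, Rbm18, Kel and Hba-a2. Those stretches therefore lie wholly or partly within the span of the gene. Hba-a2 (chr11:32296372-32296491, plus strand) shows a CCAAT box (CCAAT, either strand, in 39.7% of all promoters) and Kel (chr6:41704326-41704445, minus strand) a GATA site.
Hba-a2: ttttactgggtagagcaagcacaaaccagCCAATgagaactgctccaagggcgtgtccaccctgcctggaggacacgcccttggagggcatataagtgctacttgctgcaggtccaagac
Kel: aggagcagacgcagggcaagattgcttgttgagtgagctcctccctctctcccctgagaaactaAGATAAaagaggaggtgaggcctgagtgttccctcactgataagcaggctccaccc
The capitals mark GC boxes in the other 4, which are Notch1 (chr2:26503823-26503942, minus strand) and Gja4 (chr4:127314040-127314159, minus strand), which fell in all 3 genotypes, and Rbm18 (chr2:36136705-36136824, minus strand) and Batf3 (chr1:191098294-191098413, plus strand), whose step differed from WT. Notch1 holds 5 matches, Batf3 3, of which the first 2 overlap, and Gja4 and Rbm18 1 each.
Notch1: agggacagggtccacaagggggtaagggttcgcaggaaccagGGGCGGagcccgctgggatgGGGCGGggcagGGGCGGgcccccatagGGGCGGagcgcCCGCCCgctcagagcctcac
Gja4: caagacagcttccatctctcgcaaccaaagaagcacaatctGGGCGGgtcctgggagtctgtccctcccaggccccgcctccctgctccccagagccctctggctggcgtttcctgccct
Rbm18: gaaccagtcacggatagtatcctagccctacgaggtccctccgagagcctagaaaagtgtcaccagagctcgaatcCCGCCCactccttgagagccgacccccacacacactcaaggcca
Batf3: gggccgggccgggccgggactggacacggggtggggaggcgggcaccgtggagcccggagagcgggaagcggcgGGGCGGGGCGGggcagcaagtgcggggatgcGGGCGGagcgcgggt
Hbq1a, which also differed from WT, and Adcy4, Edn1, Tek and Vim, which fell, had no GC box in their promoter entries. A match of letters is a description, not a binding site.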

How the data were processed

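Total RNA was isolated with Trizol and sequenced from stranded, ribosome-depleted, paired-end libraries. Per the labels and the study's methods, the authors aligned the reads to mm10 with HISAT2 2.1.0, estimated FPKM with StringTie 1.3.3, dropped genes that never passed 1 FPKM and applied quantile normalisation, which gave the deposited FPKM values. The values carry no counts, so the depth behind them is unknown, and low values of different genes are tied at the lowest value of a column, which 398 to 1660 genes held. Groups came from genotype and population labels, with 2 samples each, described as biological replicates. A model of 15 group means over all 30 samples was fitted to log2(FPKM + 0.1) with limma 3.58.1 in R 4.3.3 (intensity trend, 15 residual and 3.92 prior degrees of freedom) for the 14525 of 14685 genes that passed 1 FPKM in any of the samples, and p-values were adjusted by Benjamini-Hochberg within a comparison at a threshold of 0.05. All adjusted p-values in the text are from these fits. An exact permutation test of 2 against 2 samples cannot go below 0.333 and was not used. The addition of 0.1 understates the change of low genes. The fit was also run on simulated data. These were independent normal values without ties at a lowest value or pairing of samples, so no conclusion is drawn from them.

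Genes were named as follows: Sp3, Sp1 and the sort antigens, the 10 largest rises and falls called with a mean above 3 FPKM and no overlap between groups, up to 4 called members of each list, the genes with a called difference from WT above 3 FPKM, and markers of cell types and lineages. Others were chosen after their values were seen. The members, gene lists and motifs were chosen with earlier results of these data known. Alternatives were another pseudocount, filters, sample sets, the trend, a replicate block, a GC and length correction, and leaving out each library. Gene positions are from a GENCODE annotation of GRCm38, matched by symbol for 14370 genes and by an older symbol for 184. Promoters are from RefSeq (GRCm38.p6). A few genes are not reported here by name.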

Additional observations from a re-analysis of the deposited data

Results flagged for a closer look

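The following values had a tested difference between genotypes in the step from HE2 to progenitors, on the log2 scale as Sp3-/- minus the other genotype. From WT, the step differed by -3.233 for Batf3, -4.276 for Hbq1a, 3.156 for Lyve1 and -1.324 for Rbm18. From Sp1ΔDBD/ΔDBD, it differed by 3.122 for 4930461G14Rik, -3.544 for Ccl4, -4.352 for Hbq1a, -2.533 for Ifitm1, -3.637 for Mgmt, -1.365 for Rbm18 and -3.584 for Serpina3b. The Sp3-/- samples of Hbq1a and Ccl4 lay at the lowest value of their columns in both populations. A group also lay wholly at that value for Batf3 (Sp3-/- progenitors), Serpina3b (HE2 of both mutants), 4930461G14Rik (Sp3-/- HE2 and all 4 Sp1ΔDBD/ΔDBD samples) and Mgmt (Sp1ΔDBD/ΔDBD HE2). The fitted sizes for these 6 genes depend on the constant of 0.1 and give no fold. Over the alternatives the size came down to -0.92 for Batf3, -1.20 for Mgmt, -1.41 for Serpina3b and 0.91 for 4930461G14Rik. Mgmt stood at 9.19 and 10.7 FPKM in Sp3-/- HE2 and 7.79 and 9.14 FPKM in Sp3-/- progenitors, and at 1.22 and 0.779 FPKM in Sp1ΔDBD/ΔDBD progenitors, so that its difference came from the Sp1ΔDBD/ΔDBD samples, and it was not called at a pseudocount of 1. Apart from Rbm18 and Lyve1 these genes were chosen after their values were seen. Hbq1a was called under 11 of 11 alternatives for both differences, Rbm18 under 10 of 12 for both, and Batf3 under 3 of 11.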

How the results depend on the processing

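Calls in the Sp3-/- step depended on how the spread was estimated. The genes called higher were 222 with a mean above 3 FPKM, 150 with only HE2 and progenitor samples and 849 with the replicate block, and 163 to 357 with 1 library left out. The genes called lower were 435 with only HE2 and progenitor samples and 429 to 677 with 1 library left out. Differences from WT numbered 11 with a pseudocount of 1, 1 with a mean above 3 FPKM, 11 with the replicate block and 4 to 16 with 1 library left out. Differences from Sp1ΔDBD/ΔDBD numbered 50, 3 and 38 under those settings, 4 with only HE2 and progenitor samples, 4 with only the samples compared, 14 with a GC and length correction and 4 to 22 with 1 library left out. Matrix genes called lower were 7 and haem genes called higher 2 with only HE2 and progenitor samples, and haem genes 4 without the trend. Myeloid genes called higher were 5 with a mean above 3 FPKM and 3 with only HE2 and progenitor samples. With 1 library left out, 20 to 25 endothelial genes and 11 to 13 matrix genes fell, and 7 to 12 erythroid, 1 to 4 haem and 7 to 11 myeloid genes rose, where the lone sample was assumed to vary like the other groups. Other list counts also moved. Blood transcription factors called higher were 6 with the replicate block, as were DNA replication genes, and 3 cholesterol genes were lower with it. With only HE2 and progenitor samples, lower calls were 4 for Notch, 4 for TGF-beta and BMP and 6 for VEGF and guidance, and 3 megakaryocyte genes were higher. With the 4 samples fitted alone, 10 muscle and 9 immediate early genes were lower. Genes past 2-fold with a mean above 3 FPKM, with no test, were 188 higher and 474 lower, 725 and 1018 with no minimum mean, and 192 to 281 and 442 to 542 with 1 library left out. The direction of Cd34 turned to -0.0734 with the GC and length correction and ran from -0.0595 (without progenitor replicate 2) to 0.256 with 1 library left out, where its main value of 0.10 was far from the threshold. The cause of these changes was not tested. Samples with the same replicate number share no stated culture. Their deviations correlated at 0.127 between HE2 and progenitors in Sp3-/- cells, 0.458 in WT and 0.544 in Sp1ΔDBD/ΔDBD over 10052 genes. This is a hint from the data and not the design. If these samples are paired, the residual degrees of freedom may be overstated, while the standard error of a step may be too large. The replicate block gave 849 higher and 1199 lower calls. The depth is unknown, and 2 samples a group of 1 line limit the precision.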
